A study of Mus musculus with 16 samples.

Results

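The interferon response genes are 39 mouse genes that interferons are known to switch on, chosen by name from the 27998 gene rows of single-cell RNA counts of lineage-depleted bone marrow. All 39 symbols were found in each of the 8 libraries. The marrow came from 16 C57BL/6 mice, aged 6 to 12 weeks by the labels and within a narrower span by the methods of the study, in 4 groups of 4, since mice of each genotype (WT or Tet2-KO) were given either vehicle or IL1β. IL1β was given intraperitoneally at 500 ng per mouse and day for 5 weeks. WT mice carried floxed Tet2 alleles without Cre, and Tet2-KO mice carried the same alleles with Vav-Cre, which deletes Tet2 throughout the blood system, so that loss of Tet2 and presence of the transgene cannot be told apart. Each library pooled 2 mice of 1 group that were separated by hashtag antibodies, so a library effect and a group effect cannot be fully told apart either. The 4 groups were compared to ask whether interferon response genes were higher in Tet2-KO stem cells, whether this extended to other lineages, and how IL1β moved the genes.

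Type I interferons signal through a receptor and its kinases to a complex that holds STAT2 and IRF9 and binds the interferon-stimulated response element (ISRE) of many antiviral genes. Interferon-γ acts through a separate receptor and the interferon-γ activated site (GAS), and switches on IRF1 and the guanylate-binding GTPases. In bone marrow, interferons are known to change the cycling of hematopoietic stem cells (HSCs), and stem cells are known to keep part of this antiviral program on without infection.

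Promoters are shown first for Gbp3 and Irf1, which rose with IL1β in most types below, for Isg15 and Bst2, which fell, and for Ifitm1, which moved in both directions. RefSeq promoter windows on GRCm38.p6, from 250 bases before to 50 bases after an annotated start, were held for 29 of the 39 genes in 34 windows. An ISRE core, GAAANNGAAA on either strand, lay in 19 of 34 windows (55.9%), against 1131 of 32851 windows (3.44%) of all genes. A GAS core, TTCNNNGAA, which reads the same on both strands, lay in 8 of 34 windows (23.5%), against 2726 of 32851 (8.3%). A core is a match of letters and was not tested for binding. The 5 stretches below give the 200 bases before the start, 5′ to 3′ on the gene's strand, with ISRE and GAS cores in capitals. They belong to Isg15 (chr4:156200819-156201018, minus strand, 3 overlapping ISRE cores), Gbp3 (chr3:142559844-142560043, plus strand, 2 overlapping ISRE cores), Bst2 (chr8:71537473-71537672, minus strand, 2 ISRE cores and 1 GAS core that overlap), Irf1 (chr11:53769814-53770013, plus strand, 1 GAS core) and Ifitm1 (chr7:140967876-140968075, plus strand, no core).
Isg15: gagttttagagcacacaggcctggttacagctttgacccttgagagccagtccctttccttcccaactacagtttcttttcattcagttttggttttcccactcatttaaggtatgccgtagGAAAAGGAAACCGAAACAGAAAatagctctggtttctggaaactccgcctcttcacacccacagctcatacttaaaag
Gbp3: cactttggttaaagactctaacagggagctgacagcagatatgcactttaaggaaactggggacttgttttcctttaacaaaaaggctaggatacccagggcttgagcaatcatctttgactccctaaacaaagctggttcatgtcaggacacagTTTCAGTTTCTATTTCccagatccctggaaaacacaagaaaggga
Bst2: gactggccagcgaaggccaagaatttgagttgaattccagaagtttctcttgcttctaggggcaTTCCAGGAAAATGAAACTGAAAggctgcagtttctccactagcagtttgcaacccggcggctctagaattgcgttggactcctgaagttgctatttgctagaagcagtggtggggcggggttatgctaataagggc
Irf1: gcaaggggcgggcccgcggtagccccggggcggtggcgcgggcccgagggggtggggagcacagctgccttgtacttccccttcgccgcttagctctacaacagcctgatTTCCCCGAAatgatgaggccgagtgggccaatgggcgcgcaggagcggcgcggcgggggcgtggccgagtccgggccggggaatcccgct
Ifitm1: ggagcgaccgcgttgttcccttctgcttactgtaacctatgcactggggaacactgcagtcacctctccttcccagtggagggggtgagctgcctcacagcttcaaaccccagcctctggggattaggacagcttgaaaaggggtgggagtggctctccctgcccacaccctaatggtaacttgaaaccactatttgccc
The matches lay close to the start in these genes, with the ISRE cores of Isg15 beginning 78, 72 and 66 bases before it and those of Gbp3 45 and 39 bases before it. Gbp3 and Irf1 each have a second annotated start whose window held no core. The Ifitm1 window lies inside the annotated span of the gene (chr7:140967429-140969827), so the bases before that span were not read for cores. Genes that rose and genes that fell shared combinations of cores, since Gbp3 and Isg15 both held ISRE cores alone.

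After barcodes with fewer than 750 genes or over 10% mitochondrial UMIs (unique molecular identifiers, each a counted RNA molecule) were removed, 94917 of 121405 barcodes remained, with 52915002 to 95326908 UMIs per library. Hashtags assigned 57896 cells to 1 mouse, while 33083 were negative and 3938 positive for both hashtags. Libraries shared 187 to 327 barcodes with others, which was 1.94 to 2.55% of their kept barcodes. Cells were sorted into 18 types by UMIs of marker genes, and 44950 cells were given 1 type. Values are given per mouse as CPM, the share that a gene takes of all UMIs summed over the mouse's cells of a type, scaled so that all genes add up to the same total (counts per 1000000), for mice with at least 10 such cells. UMIs of the granulocyte gene Mpo were found in 49.7% of NK/T-like cells (median 1882 UMIs per cell) and in 100% of granulocyte progenitor-like cells (median 7781 UMIs). Those of Elane were in 31.9% and 100% of these cells, and those of the globin gene Hba-a1 in 6.04% and 7.46%. Free RNA and doublets of 1 mouse, which were not removed, were not told apart here. Xist and Y-linked UMIs were mixed in 1 WT mouse with IL1β and 1 WT mouse with vehicle, at 67 to 243 CPM of Xist. Their 2 pool partners, high in Xist, had Y-linked UMIs at 7.13 and 7.58 CPM, where the other mice high in Xist had 0.0876 to 0.428 CPM. These others were Tet2-KO mice, replicates 1 and 2 with vehicle and replicates 3 and 4 with IL1β. In Tet2-KO, sex and pool therefore cannot be told apart, and WT had fewer mice high in Xist. Results without both mice of mixed UMIs, and without both of their pools, are given for each genotype call, and as counts for the IL1β calls. Tet2 itself was read at its 3′ end, which does not show the deletion, and its median in HSC-like cells was 39.2 CPM in WT with vehicle, 63.9 in WT with IL1β, 57.7 in Tet2-KO with vehicle and 72.3 in Tet2-KO with IL1β.

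HSC-like cells were cells with UMIs of at least 2 of 7 stem cell genes and none of Ms4a3 that met no gate of a committed or progenitor type. There were 1823 of them, with 15 to 230 per mouse and 51306 to 856611 UMIs per mouse. The label held against the stem cell genes, which include Hlf (with a UMI in 84.6% of HSC-like cells and 8.24% of the other gated cells) and Mecom (33.6% and 1.73%), and 71.9% of the cells lay in a cluster named HSC. Both shares follow in part from the gate, which used these genes. MPP-like cells fitted their name less well, since 15.4% lay in a cluster of that name and 31.4% in the HSC cluster, and no cluster carried the names MEP, IMP or pDC. Of IMP-like cells, 25.5% lay in a granulocyte progenitor cluster, the largest share. Of pDC-like cells 39.8% lay in a cluster named monocyte, and 44.4% of monocyte progenitor-like cells lay in the cluster of their name. A cluster named monocyte had Siglech, which the pDC gate requires, among its leading genes, so that name alone does not show monocyte identity.

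The level of the genes was low for most members and differed widely among cell types. Ifit1, Ifit3, Oas1a and Oas2 passed the filter on low counts in no cell type, while Bst2, Ifitm1, Ifitm2, Ifitm3, Irf1 and Ly6e passed in all 15 types with enough mice for a test. These 15 types leave out eosinophil-, DC- and pDC-like cells. Over all types, 35 members gave 289 pairs of a member and a cell type, out of 103433 such pairs for all genes. In HSC-like cells 25 of the 39 passed. The CPM of 3′ UMIs are not divided by gene length, and on this scale Ifitm1, a membrane protein that blocks virus entry, had the highest mean of all members in HSC-like cells (661 CPM) and MEP-like cells (608 CPM). Ifitm3 was highest in MegP-like cells (779 CPM) and Ifitm2 in neutrophil-like cells (417 CPM). Ly6e, a GPI-anchored surface protein, reached 1686 CPM in basophil-like cells. Bst2 (tetherin, which holds budding virus on the cell surface) ranged from 37 CPM in neutrophil-like cells to 300.4 CPM in plasma-like cells among the tested types, and had 1235 CPM in the untested pDC-like cells.

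Ifit1, Gbp2 and Rtp4 were at lower CPM and were highest in HSC-like cells, while Irf7, Stat2 and Irf1 were highest elsewhere. Ifit1, which binds viral RNA, had a mean of 9.69 CPM in HSC-like cells and 0 to 6.47 CPM in the other 17 types. Gbp2, a GTPase that attacks pathogen vacuoles, had 25 CPM in HSC-like cells and 1.12 to 23.3 CPM elsewhere, and Rtp4, which restrains interferon signalling, had 26.1 CPM against at most 19.7 CPM in CLP-like cells. Irf7, the main amplifier of type I interferon, was highest in DC-like cells (35.1 CPM), as was Stat2 (33.4 CPM), with HSC-like cells at 6.98 and 20 CPM. Irf1, the transcription factor that interferon-γ induces, was highest in NK/T-like cells (80.4 CPM), followed by MPP-like (71 CPM) and HSC-like cells (69.4 CPM). Isg15, a ubiquitin-like protein joined to other proteins, had 21.9 CPM in DC-like, 17.7 in CLP-like and 16.5 in HSC-like cells, which are neighbours in that order. These orders were not tested.

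In HSC-like cells no member passed the test between Tet2-KO and WT. With vehicle, edgeR's quasi-likelihood test called 0 of 25 members at an adjusted p under 0.05, and 2 had an unadjusted p under 0.05. With IL1β it called 0, and 5 had an unadjusted p under 0.05. DESeq2 called 0 and 0 members in these 2 comparisons. Of all 6992 genes tested, 0% were called with vehicle and 0% with IL1β. For the genotype difference averaged over vehicle and IL1β, 0 of 25 members were called, 5 had an unadjusted p under 0.05 and DESeq2 called 0, beside 0.0429% of all genes. The median log2 fold change of the members was 0.06 with vehicle, 0.33 with IL1β and 0.19 on average, beside 0.00, 0.00 and 0.01 over all genes. Of the 25 members, 19 had a positive average difference, and the interaction of genotype and IL1β called 0 members (1 at an unadjusted p under 0.05, 0 by DESeq2) and 0% of all genes.

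**Figure D1:**
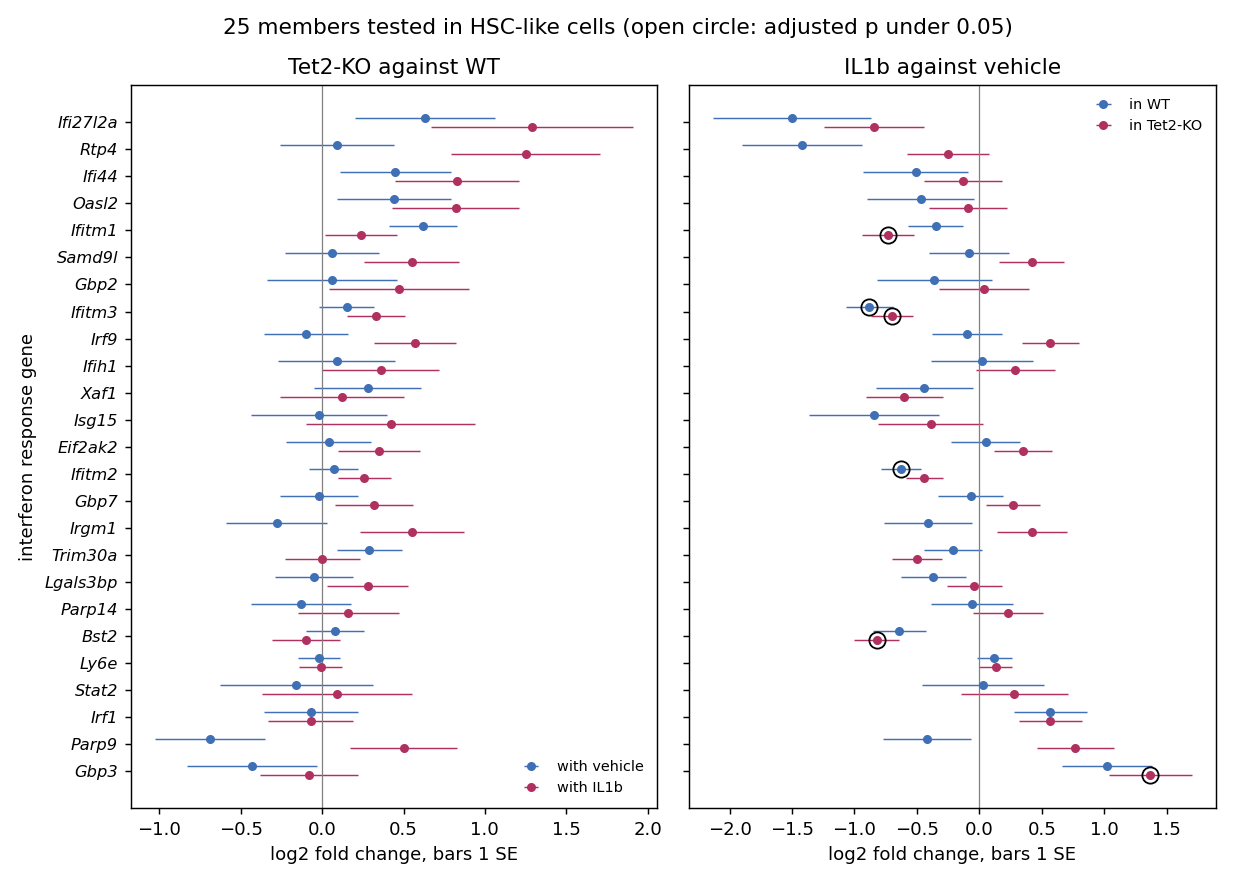
Log2 fold change of the 25 tested members in HSC-like cells with bars of 1 SE, for Tet2-KO against WT (left, blue with vehicle, red with IL1β) and IL1β against vehicle (right, blue in WT, red in Tet2-KO), where a black ring marks an edgeR adjusted p under 0.05. On the left 0 members are ringed, while on the right Ifitm1, Ifitm2, Ifitm3 and Bst2 are ringed below 0 and Gbp3 above it.

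Ifi27l2a, a small interferon-induced membrane protein, had the widest genotype difference in HSC-like cells on average over the treatments. Its CPM was 29.5, 39.0, 16.4 and 16.0 in WT with vehicle, 6.90, 0, 7.71 and 12.6 in WT with IL1β, 32.2, 7.50, 36.2 and 27.4 in Tet2-KO with vehicle, and 12.8, 12.8, 46.0 and 8.73 in Tet2-KO with IL1β. The genotypes overlapped under both treatments, and the average log2 difference was 0.96 ± 0.37 (SE, 8 mice against 8, edgeR adjusted p = 0.507). Rtp4 had 15.5, 25.6, 10.3 and 0 CPM in WT with IL1β and 19.1, 32.7, 23.0 and 38.4 in Tet2-KO with IL1β. Its mice overlapped there too, with a log2 difference of 1.25 and an edgeR adjusted p of 0.518. Ifi44, an antiviral cytoplasmic protein, had an average log2 difference of 0.64 ± 0.26 (edgeR adjusted p = 0.519), with 12.6 to 38.4 CPM in WT and 25.5 to 52.6 CPM in Tet2-KO under IL1β.

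Oasl2, a relative of the antiviral oligoadenylate synthetases, had genotypes that did not overlap under vehicle, at few UMIs. It had 19.7, 19.5, 24.6 and 22.1 CPM in WT with vehicle and 26.6, 30, 34.5 and 29.7 CPM in Tet2-KO with vehicle, and 24.2, 0, 15.4 and 0 against 12.8, 37.4, 36.2 and 22.7 CPM with IL1β. In the WT mouse with 51306 UMIs the 19.5 CPM were 1 UMI, and in the Tet2-KO mouse with 133391 UMIs the 30 CPM were 4 UMIs. The genotypes overlapped with IL1β, and the average log2 difference was 0.63 ± 0.26 (SE, edgeR adjusted p = 0.571). The interaction with an unadjusted p under 0.05 was that of Parp9, an ADP-ribosyltransferase partner in the antiviral response, whose genotype difference was -0.69 with vehicle and 0.50 with IL1β (edgeR adjusted p of the interaction = 0.997).

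Ifitm1 separated the genotypes with vehicle but did not pass the correction over all genes. It stood at 619.6, 273, 782 and 646 CPM in WT with vehicle and at 1087, 1079.5, 805 and 844 CPM in Tet2-KO with vehicle, so every Tet2-KO mouse was above every WT mouse. The log2 difference was 0.62 ± 0.21 (SE, 4 against 4, unadjusted p = 0.00540, edgeR adjusted p = 0.982). With IL1β the mice overlapped, at 716, 460.3, 375 and 491 CPM in WT and 517, 431, 842 and 602 CPM in Tet2-KO. Ifitm1, Ifitm2 and Ifitm3 are related neighbours on chromosome 7, and the split of 3′ reads among them was not checked.

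The other members among the 12 with the largest average genotype differences in HSC-like cells did not pass either. Samd9l, which restrains proliferation, had an average log2 difference of 0.31 ± 0.21 (SE). Its CPM was 51.0, 50.2, 52.6 and 48.9 in Tet2-KO with IL1β and 29.3, 63.9, 41.1 and 12.6 in WT with IL1β, with 29.5, 19.5, 41.0 and 32.1 in WT and 37.9, 15.0, 44.4 and 29.7 in Tet2-KO under vehicle. Irf9, the DNA-binding part of the type I interferon complex, had 0.24 ± 0.18, with 82.9, 67.7, 75.6 and 61.1 CPM in Tet2-KO against 44.9, 63.9, 46.3 and 50.3 CPM in WT under IL1β, where 1 WT mouse lay above the lowest Tet2-KO mouse. Gbp2 had 0.26 ± 0.29, Gbp3 -0.26 ± 0.25, Ifitm3 0.24 ± 0.12, the RNA sensor Ifih1 0.22 ± 0.25 and the pro-apoptotic Xaf1 0.20 ± 0.25. The values of Xaf1 ran from 19.5 to 39.3 CPM in WT and from 20.9 to 47.7 CPM in Tet2-KO under vehicle, and those of Ifih1 from 0 to 36.1 and from 15.0 to 32.2 CPM. Isg15 had 0.20 ± 0.34, Irf1 -0.07 ± 0.19, Stat2 -0.04 ± 0.33, Bst2 -0.01 ± 0.14 and Ly6e -0.02 ± 0.09, and the remaining 8 tested members lay between -0.09 and 0.19 (edgeR adjusted p of 0.693 or more for each).

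The score of the 39 genes, their mean log2(CPM + 1), was in HSC-like cells 4.24 ± 0.77 in WT with vehicle (SD, n = 4), 4.10 ± 0.45 in WT with IL1β, 4.64 ± 0.23 in Tet2-KO with vehicle and 4.77 ± 0.36 in Tet2-KO with IL1β. The genotypes overlapped with vehicle, where WT mice ranged from 3.11 to 4.81 and Tet2-KO mice from 4.41 to 4.89, and with IL1β, from 3.59 to 4.58 against 4.24 to 4.99. The Tet2-KO mean was higher by 0.39 with vehicle and by 0.68 with IL1β, where the SD within groups was 0.50. Apart from the lowest WT mouse with vehicle (3.11), the others scored 4.49, 4.81 and 4.56, within the Tet2-KO range of 4.41 to 4.89. That lowest mouse was 1 of the 2 with mixed Xist and Y-linked UMIs. It had the fewest HSC-like UMIs (51306), with 21 members detected, so the score moved with depth. As a share of all UMIs, which does not have this floor at 0, the 39 genes took 0.238 to 0.38% in WT with vehicle, 0.26 to 0.295% in WT with IL1β, 0.361 to 0.39% in Tet2-KO with vehicle and 0.291 to 0.351% in Tet2-KO with IL1β. Most of this share belonged to the Ifitm genes and Ly6e.

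Stress genes moved with genotype beside these values. Hspa1a, a heat shock chaperone that rises with handling of cells, was higher in Tet2-KO in 5 of 15 types on average (log2 1.57 to 2.15, with 2.15 in HSC-like cells, edgeR). The share of stress gene UMIs in HSC-like cells was 0.161 to 0.386% in WT with vehicle, 0.39 to 0.752% in WT with IL1β, 0.255 to 1.05% in Tet2-KO with vehicle and 0.507 to 1.08% in Tet2-KO with IL1β. In each group both mice of the pool numbered 1-2 lay above both of the pool numbered 3-4. Its part in the member values was not tested. Of the marker lists of other cell types, none had a called gene in HSC-like cells for the average genotype difference.

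**Figure D2:**
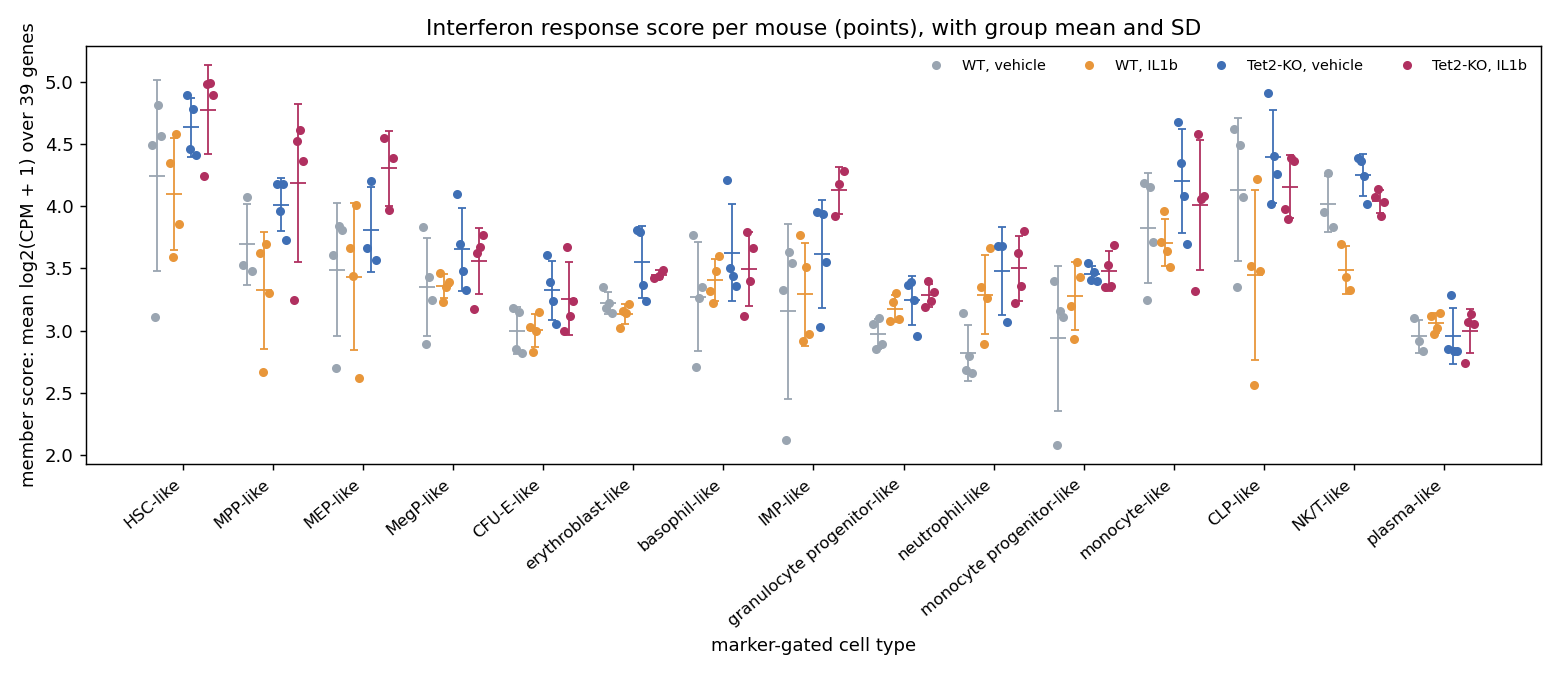
Score of the 39 genes, the mean log2(CPM + 1), for each mouse (points) with group mean and SD in the 15 tested cell types, coloured by group. The scores are highest in HSC-like cells, where the Tet2-KO means of 4.64 and 4.77 lie above the WT means of 4.24 and 4.10 and the mice overlap. The WT mean of 4.24 includes 1 mouse at 3.11.

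Outside HSC-like cells the genotype difference was called for few members, all higher in Tet2-KO, with the filter on low counts. Over the 289 pairs of members and types, edgeR called 2 higher and 0 lower in Tet2-KO with vehicle (0.692% of pairs), beside 0.0184% higher and 0.00967% lower of all genes. With IL1β it called 1 higher and 0 lower (0.346%), beside 0.0551% and 0.0290%. Averaged over the treatments it called 9 higher and 0 lower (3.11%), beside 0.106% and 0.0648%. An unadjusted p under 0.05 by edgeR was found for 41 of the 289 pairs with vehicle, 82 with IL1β and 92 on average. The share of all genes at this threshold is not given, here or for the other such counts. These counts therefore do not show whether members moved more than other genes. The interaction called 0 of 289, beside 0.0135% higher and 9.67e-04% lower of all genes (23 pairs had an unadjusted p under 0.05, and DESeq2 called 0). Without a filter on low counts edgeR called 18 of 578 pairs higher with vehicle (3.11%), 16 higher and 1 lower with IL1β (2.77% and 0.173%) and 32 higher on average (5.54%), beside 0.132%, 0.207% and 0.136%, and 0.248% of all genes. Of these, 0, 0 and 3 higher pairs lay below the filter. The pairs share mice and, for 1 gene in several types, are not independent. The median log2 difference of members was positive in all 15 types, from 0.10 in basophil-like cells to 0.45 in neutrophil-like cells, where the medians of all genes lay between -0.01 and 0.01. The SD between mice of the median member deviation was 0.10 to 0.28 across types. It was 0.11 in basophil-like, 0.20 in HSC-like and 0.18 in neutrophil-like cells, and the 15 types come from the same mice. In CFU-E-, erythroblast- and MEP-like cells no member was called on average, and 29 of 30, 26 of 29 and 13 of 13 members were positive. Their medians were 0.37, 0.28 and 0.31, beside SDs of 0.18, 0.14 and 0.16.

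**Figure D3:**
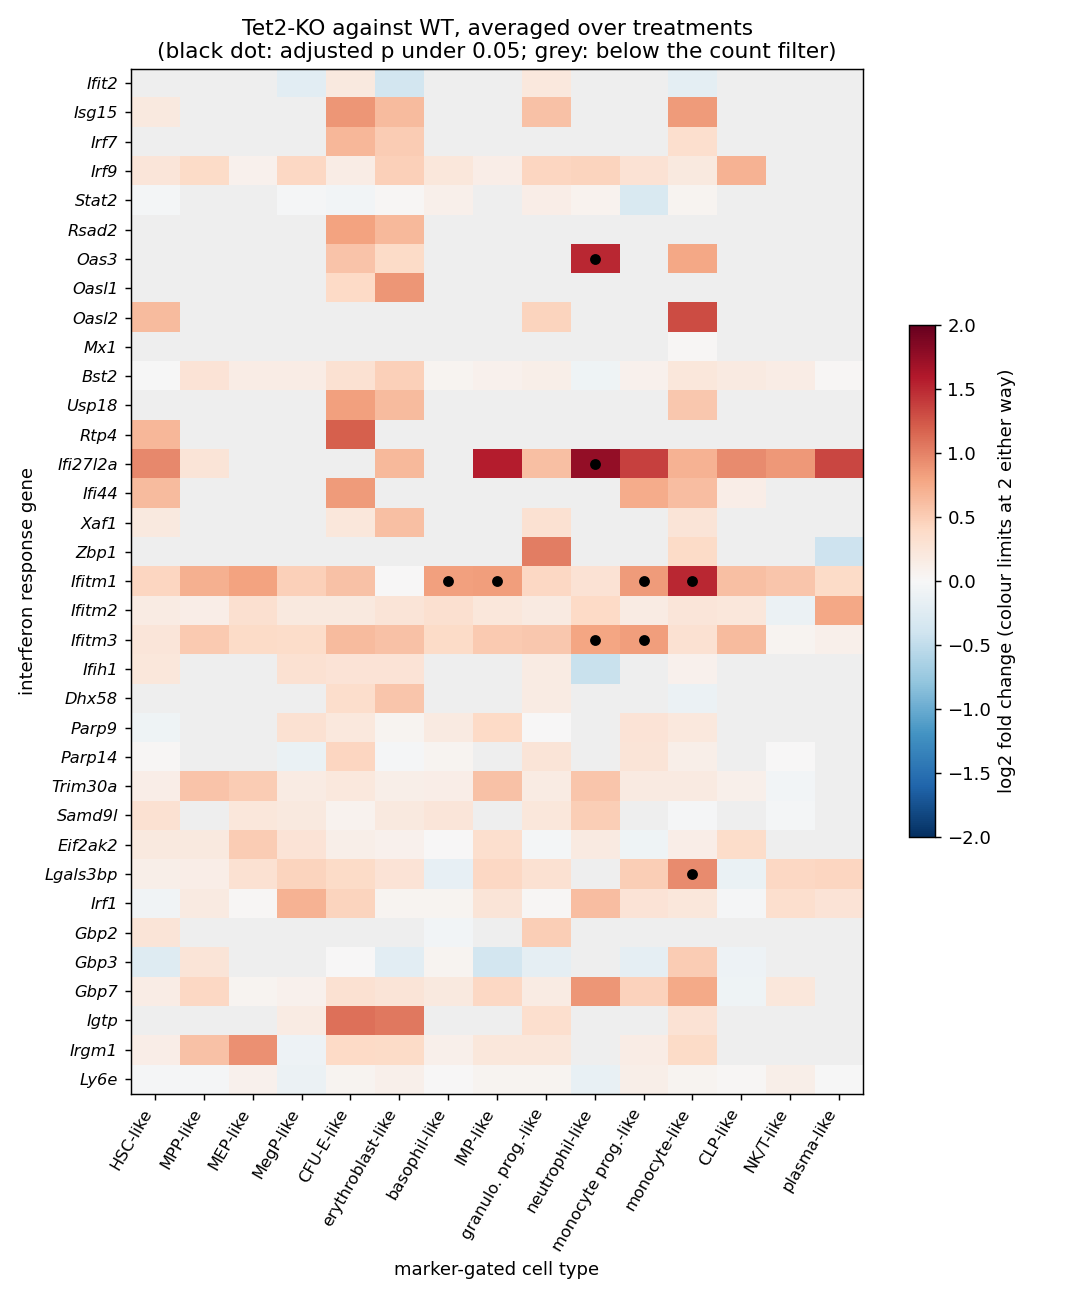
Log2 fold change of Tet2-KO against WT averaged over vehicle and IL1β for each tested member (vertical) in each cell type (horizontal), with red higher and blue lower in Tet2-KO, grey below the count filter and a black dot at an edgeR adjusted p under 0.05. The 9 dots lie in neutrophil-, basophil-, monocyte-, monocyte progenitor- and IMP-like cells, and none in HSC-like cells.

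Ifitm1 carried 4 of the 9 calls in the average, and its largest genotype difference was in monocyte-like cells. Its CPM there was 31.2, 55.6, 34.6 and 33.6 in WT with vehicle, 192, 127, 121 and 139 in Tet2-KO with vehicle, 188, 149, 108 and 100.1 in WT with IL1β, and 220.1, 197, 324 and 238 in Tet2-KO with IL1β. Every Tet2-KO mouse was above every WT mouse within each treatment. The log2 difference was 2.15 ± 0.22 with vehicle (SE, 4 against 4, edgeR adjusted p = 4.30e-06), beside 0.0524% of genes called higher in these cells. On average over the treatments it was 1.50 (adjusted p = 1.34e-06), beside 0.210% called higher, and with IL1β alone 0.84 (adjusted p = 0.227). The interaction was -1.31 (unadjusted p = 1.14e-04, adjusted p = 1.00), so the 2 genotype differences were not shown to differ after correction over all genes. Both calls held without any 1 mouse.

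Marker genes of other cell types moved with genotype in the monocyte-like cells. Of 9 granulocyte progenitor markers, 3 were higher in Tet2-KO on average, with summed levels of 2734 to 4693 CPM in WT with vehicle and 5157 to 8961 CPM in Tet2-KO with vehicle. Of 5 IMP markers, 3 were higher, with 3096 to 4776 CPM against 5609 to 9201 CPM. Both lists hold Prtn3 and Ctsg, so they are not separate. In granulocyte progenitor-like cells themselves, Ifitm1 had a mean of 75.3 CPM in Tet2-KO with vehicle, below each of the 4 monocyte-like values of that group, while in IMP-like cells Ifitm1 had a mean of 543 CPM in that group, above each of them. Markers of basophil-like cells, the type with the highest Ifitm1, ranged from 18.5 to 51.8 CPM in WT with vehicle and from 29.3 to 35.8 CPM in Tet2-KO with vehicle. The part of these markers in the Ifitm1 difference was not tested. A Lgals3bp call in monocyte-like cells (a secreted glycoprotein, average log2 difference 0.95, edgeR adjusted p = 0.0404) held in 4 of 16 fits that left out 1 mouse.

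In monocyte progenitor-like cells Ifitm1 and Ifitm3 were higher in Tet2-KO. With vehicle, Ifitm1 had 83.0, 106, 129 and 100.2 CPM in WT and 354, 193, 200.3 and 216 CPM in Tet2-KO, with no overlap. The log2 difference was 1.24 with vehicle (edgeR adjusted p = 0.0145) and 0.85 on average (adjusted p = 0.0195), beside 0.0268% and 0.0402% of genes called higher in these cells. Ifitm3, a blocker of virus entry at the endosome, had 353, 249, 262 and 214 CPM in WT against 455, 370.4, 503 and 431 CPM in Tet2-KO with vehicle. With IL1β it had 175, 209.7, 205 and 241 CPM in WT and 207, 296, 466 and 504 CPM in Tet2-KO, which overlapped at the lowest Tet2-KO mouse. Its average log2 difference was 0.83 (edgeR adjusted p = 0.00150) and held without any 1 mouse, while the Ifitm1 calls held in 13 and 11 of 16 such fits. No marker of another type was called between genotypes in these cells.

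Neutrophil-like cells had the calls of 3 members, led by Ifi27l2a. Its CPM was 43.7, 24.4, 20.3 and 3.44 in WT with vehicle, 56.5, 78.8 and 61.1 in 3 Tet2-KO mice with vehicle, 5.87, 9.04, 12.3 and 10.8 in WT with IL1β, and 26.9, 33.1, 28.3 and 65.7 in Tet2-KO with IL1β. Within each treatment no WT mouse reached a Tet2-KO mouse. The log2 difference was 2.30 with IL1β (edgeR adjusted p = 0.00402), beside 0.0597% of genes called higher, and 1.76 on average (adjusted p = 5.70e-04), beside 0.0895%. The average call held without any 1 mouse, and the call with IL1β was lost without replicate 1 of WT with IL1β (adjusted p = 0.139). Oas3, which makes the RNase L activator, and Ifitm3 were higher on average by 1.50 and 0.79 on the log2 scale (edgeR adjusted p = 0.0289 and 0.0333), but held in 10 and 7 of 16 fits that left out 1 mouse.

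The remaining genotype calls were again Ifitm1. In basophil-like cells it had 945, 599, 912 and 736 CPM in WT and 1566, 903, 1666 and 1736 CPM in Tet2-KO with vehicle, where 1 Tet2-KO mouse lay below 2 WT mice. With IL1β it had 574, 408, 337 and 323 CPM in WT and 587, 843, 622 and 669 CPM in Tet2-KO, with no overlap. The average log2 difference was 0.82 (edgeR adjusted p = 0.00946), beside 0.0493% of genes called higher, and held without any 1 mouse. Of the 9 neutrophil markers, 2 were lower in Tet2-KO in these cells. In IMP-like cells the average difference of Ifitm1 was 0.84 (edgeR adjusted p = 0.0488), beside 0.159%, and held in 7 of 16 such fits.

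DESeq2 called 1 of the 2 genotype calls with vehicle and 5 of the 9 averaged calls. It did not call Ifitm1 in monocyte progenitor-like cells (with vehicle and on average) or IMP-like cells, nor Oas3 in neutrophil-like cells, and gave no adjusted p for Lgals3bp in monocyte-like cells on average and for Ifi27l2a in neutrophil-like cells with IL1β. With the 8 pools as replicates, since mice of a pool share a library, edgeR called 3 of the 9 averaged calls, those of Ifi27l2a and Oas3 in neutrophil-like and Ifitm1 in monocyte-like cells. It also called Ifitm1 with vehicle in monocyte-like cells and Ifi27l2a with IL1β. With the sex of the mouse as a covariate, chosen after seeing the data, 6 of the 9 averaged calls held, while Ifitm3 in neutrophil-like (0.74), Lgals3bp in monocyte-like (0.90) and Ifitm1 in IMP-like cells (0.81) no longer passed. With a hashtag ratio rule, under which neutrophil-like cells were not tested, 5 of 6 averaged calls held (Lgals3bp did not), and Ifitm1 with vehicle held in monocyte-like (1.90) and not in monocyte progenitor-like cells (0.92). With the pool number as a replicate block, all 9 held and 15 pairs were called in all, with 2 in place of 1 with IL1β.

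Without the 2 WT mice whose Xist and Y-linked UMIs were mixed, a choice made after seeing the data, 3 of the 9 averaged genotype calls held. These were Ifi27l2a in neutrophil-like cells (log2 1.83), Ifitm1 in monocyte-like cells (1.44) and Ifitm3 in monocyte progenitor-like cells (0.81). Both calls with vehicle held, with 2.17 and 1.24 for Ifitm1 in monocyte-like and monocyte progenitor-like cells, as did the call with IL1β (2.43). The other 6 kept their direction and no longer passed edgeR's test, with Oas3 at 1.56 and Ifitm3 at 0.77 in neutrophil-like cells, Lgals3bp at 0.87 in monocyte-like cells, and Ifitm1 at 0.72 in basophil-like, 0.78 in monocyte progenitor-like and 0.72 in IMP-like cells. Without both mice of these 2 pools, which leaves 2 WT mice per treatment, the same 3 averaged calls held (2.35, 1.34 and 0.97), as did Ifitm1 with vehicle in monocyte-like cells (2.13) and Ifi27l2a with IL1β (2.46), while Ifitm1 with vehicle in monocyte progenitor-like cells (1.11) no longer passed.

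**Figure D4:**
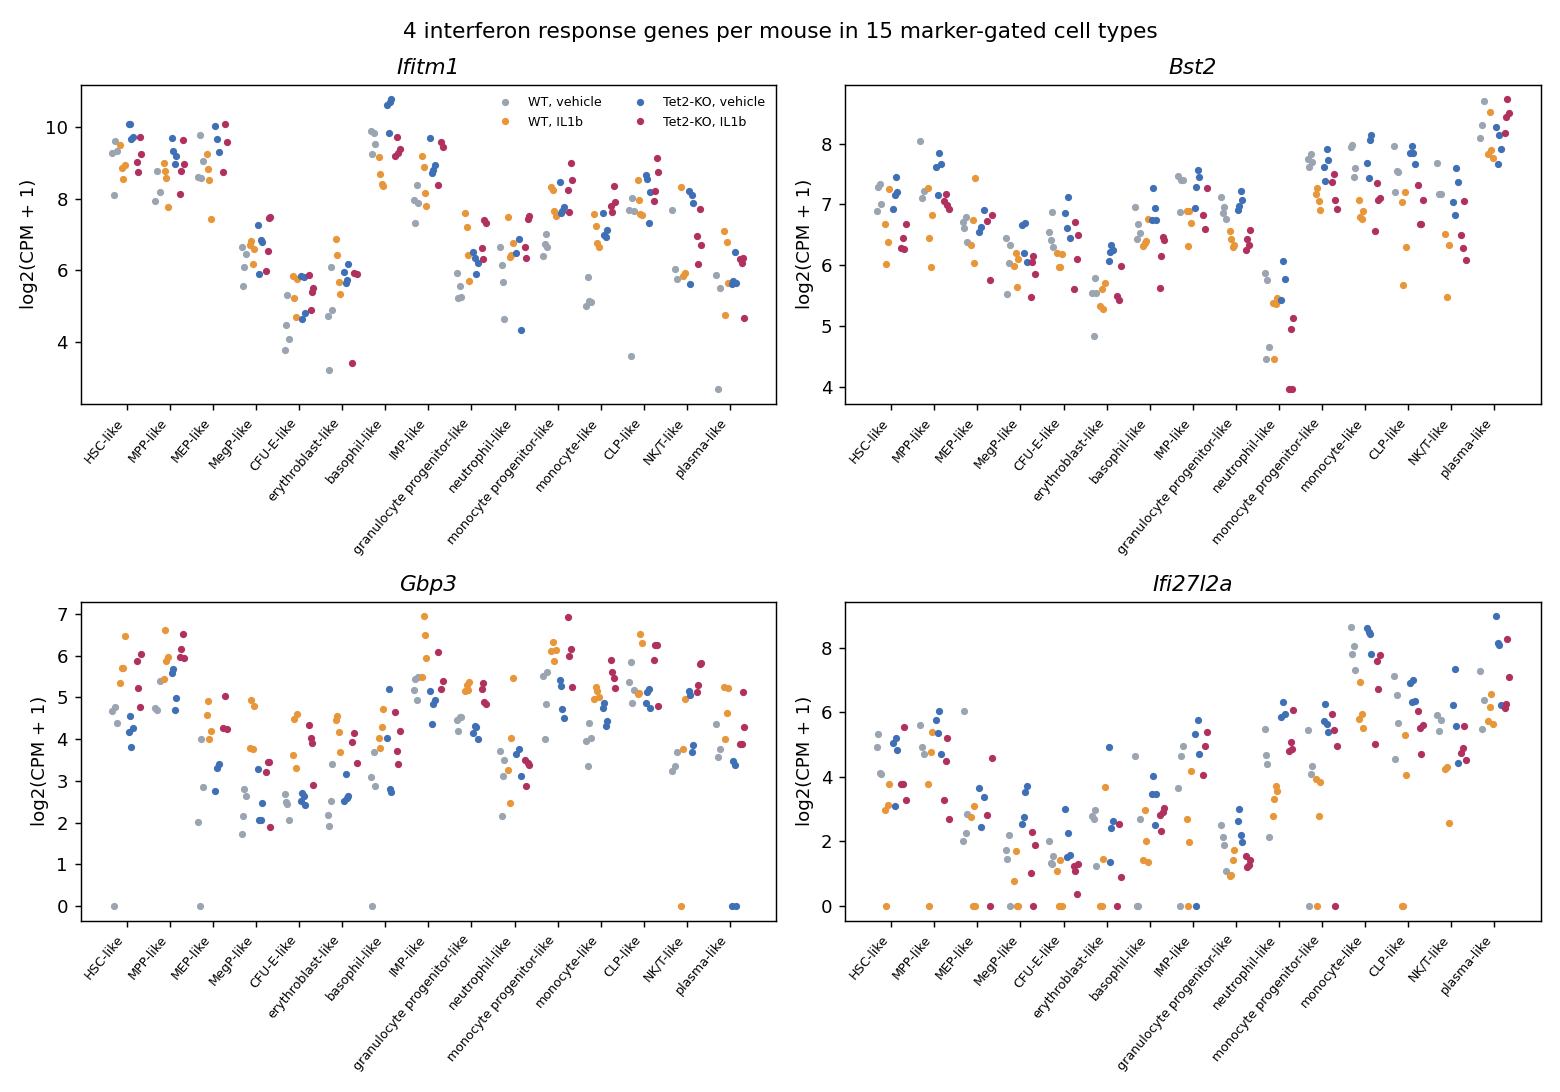
Levels of Ifitm1, Bst2, Gbp3 and Ifi27l2a as log2(CPM + 1), with 1 point per mouse in the 15 tested cell types, coloured by group. Ifitm1 separates WT with vehicle from the other groups in monocyte-like cells, and Bst2 and Gbp3 move apart with IL1β in most types.

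Whether the genotype difference of a member differed between HSC-like cells and another type was tested with both types of each mouse in 1 fit, over 371 pairs of members and 14 types, of which 232 had passed the count filter in both types. On average over the treatments 33 pairs had an unadjusted p under 0.05 by edgeR, where the share of all genes is not given. After adjustment edgeR called 2 differences, both more positive than in HSC-like cells, beside 0.0850% of all genes. These were Ifitm1 in monocyte-like cells (higher by 1.11 on the log2 scale, edgeR adjusted p = 6.89e-09) and Ifitm3 in monocyte progenitor-like cells (higher by 0.62, adjusted p = 0.00173). With vehicle the call was again Ifitm1 in monocyte-like cells (higher by 1.62, edgeR adjusted p = 5.85e-09), beside 0.00647% of all genes. With IL1β 1 difference was more negative than in HSC-like cells, that of Ifitm1 in erythroblast-like cells (by -1.17, edgeR adjusted p = 0.0353, with log2 differences of -0.74 there and 0.24 in HSC-like cells), beside 0.0905%. For the other members and types, a difference from HSC-like cells was not shown in either direction.

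IL1β moved many more members than genotype did, and lowered more of them than it raised. In WT, edgeR called 15 of 289 pairs higher (5.19%) and 40 lower (13.8%) with IL1β, beside 3.92% higher and 5.84% lower of all genes. In Tet2-KO it called 21 higher (7.27%) and 33 lower (11.4%), beside 4.95% and 6.99%. Averaged over the genotypes it called 39 higher (13.5%) and 66 lower (22.8%), beside 11.0% and 13%. Without the 2 mice of mixed UMIs, 22 of the 55 calls in WT held, 51 of the 54 in Tet2-KO and 84 of the 105 averaged calls. Without both pools of these mice 5, 46 and 56 held, and none of those still tested changed sign. The split in WT was 10 higher and 14 lower without the 2 mice and 4 higher and 1 lower without both pools, so that IL1β did not lower more members than it raised in WT in the latter. In Tet2-KO it was 23 and 37, and 21 and 41. Of the 54 calls in Tet2-KO, 27 held without replicate 3 of Tet2-KO with vehicle, and 27 with pools as replicates. The IL1β calls named below were not followed singly through these fits. By the counts above, at most 1 of the falls named in WT was still called without both pools, and at most 4 of the rises. The share of members higher on average was near that of all genes, and the share lower was above it. Of the 66 lower pairs, 4 genes gave 43, namely Bst2, Ifitm2, Ifitm3 and Ifi27l2a. Over all cells, mitochondrial genes took 4.7 to 5.62% of UMIs in mice with IL1β and 3.57 to 4.31% in mice with vehicle. The part of this difference in the IL1β changes was not tested.

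**Figure D5:**
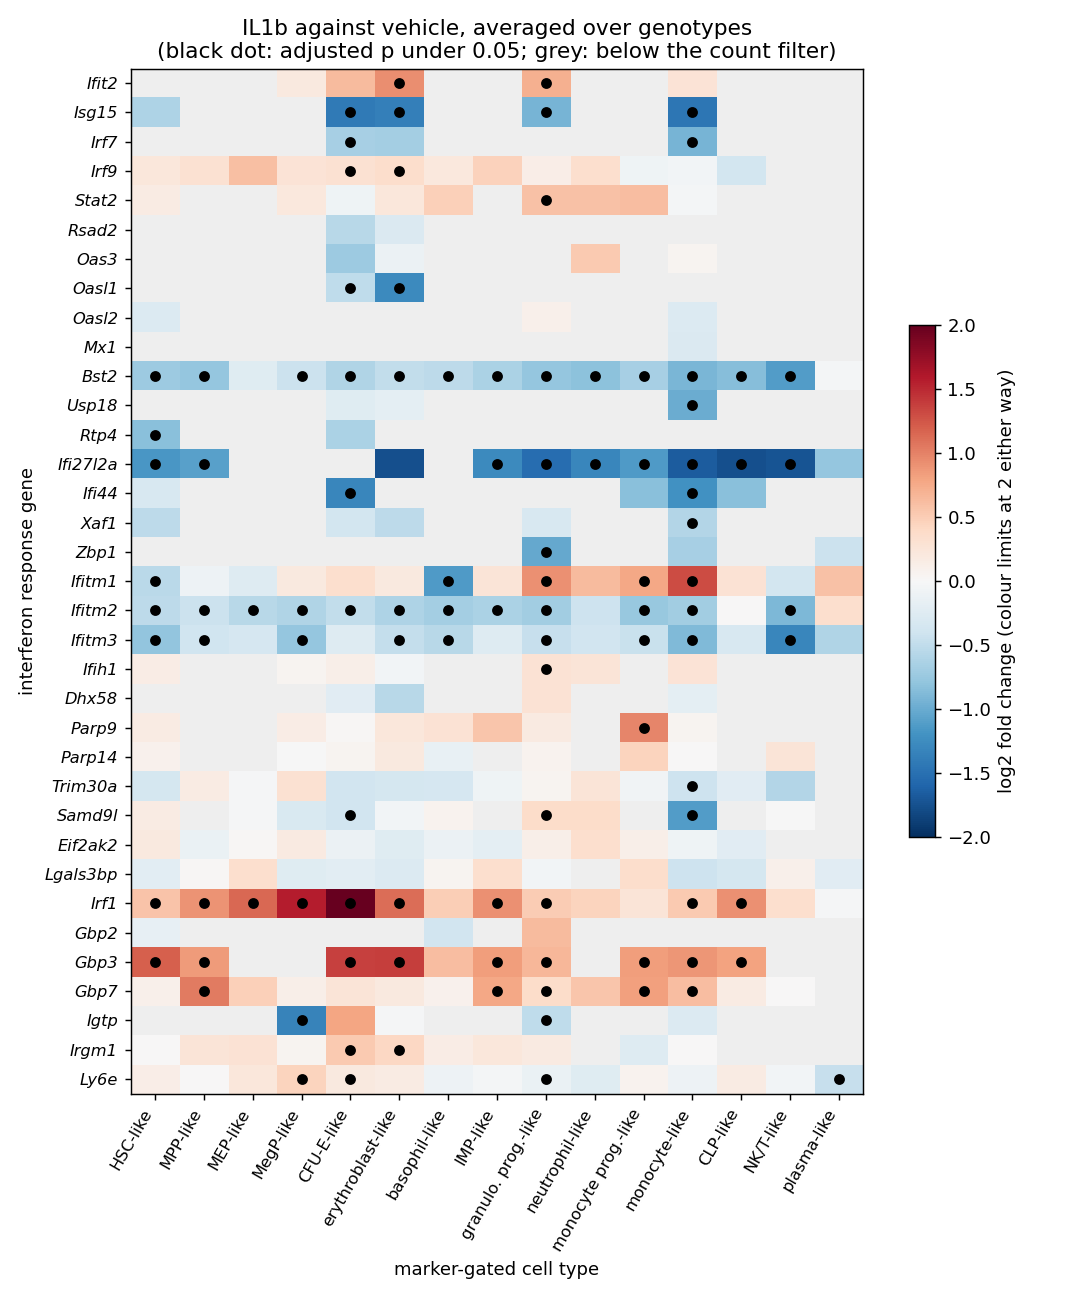
Log2 fold change of IL1β against vehicle averaged over the genotypes for each tested member (vertical) in each cell type (horizontal), with red higher and blue lower with IL1β, grey below the count filter and a black dot at an edgeR adjusted p under 0.05. Bst2, Ifi27l2a, Ifitm2 and Ifitm3 are blue across most types, Irf1 and Gbp3 red, and Ifitm1 changes sign between types.

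Bst2, Ifi27l2a, Ifitm2, Ifitm3 and Isg15 fell with IL1β in most types in which they were tested. Bst2 was lower in 13 of 15 types on average (log2 -1.11 to -0.43 among those called), with -0.24 in MEP-like and -0.04 in plasma-like cells, which did not pass. In monocyte-like cells it had 247, 250.3, 174 and 193 CPM in WT with vehicle and 133, 110.2, 108 and 118 CPM in WT with IL1β. In the Tet2-KO mice it had 205, 173, 266 and 283 CPM with vehicle and 93.4, 163, 134 and 137 CPM with IL1β. Every IL1β mouse was below every vehicle mouse, and the log2 change was -0.91 in each genotype (edgeR adjusted p = 0.00286 in WT and 0.00129 in Tet2-KO).

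Ifi27l2a fell with IL1β in 9 of the 11 types in which it was tested (log2 -1.76 to -0.78 over the 11). Among monocyte-like cells of WT mice it went from 402, 222, 265 and 157 CPM with vehicle to 54.6, 122, 60.2 and 44.5 CPM with IL1β, with no overlap and a log2 change of -2.0 (edgeR adjusted p = 0.00370). Isg15 fell in 4 of 5 types, with -0.62 in HSC-like cells not passing. Its CPM in CFU-E-like cells was 9.59, 4.61, 9.80 and 3.60 in WT with vehicle and 2.19, 1.19, 3.14 and 2.60 with IL1β, with no overlap and a log2 change of -1.68 (edgeR adjusted p = 0.0201). Such values rest on few UMIs, since the mouse at 1.19 CPM had 1676545 UMIs of all genes in these cells. In Tet2-KO mice Isg15 fell as well (log2 -1.16, edgeR adjusted p = 0.0459), although the groups overlapped.

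Other members that fell were called in fewer types. Oasl1, which restrains translation of Irf7, fell in 2 of 2 types and Irf7 in 2 of 3 (log2 -0.93 to -0.66 over the 3). Ifi44 fell in 2 of 5 types, and Usp18 (which removes Isg15 from proteins and damps the interferon receptor), Xaf1, Zbp1 (a sensor of Z-form nucleic acid), Rtp4 and Trim30a fell in 1 type each. Ifitm2 fell in 12 of 15 types and Ifitm3 in 9 of 15, with all 15 Ifitm3 changes negative (log2 -1.31 to -0.26).

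Irf1 and Gbp3 rose with IL1β in most types in which they were tested. Irf1 rose in 10 of 15 types, up to a log2 change of 2.00 in CFU-E-like cells (edgeR adjusted p = 5.33e-05). There it had 3.03, 1.54, 5.39 and 1.48 CPM in WT with vehicle and 11.2, 15.5, 17.6 and 15.6 CPM with IL1β, and 6.12, 9.18, 2.34 and 4.82 against 17.7, 31.9, 10.5 and 8.43 CPM in Tet2-KO. All WT mice with IL1β were above all with vehicle, while in Tet2-KO 1 mouse with IL1β lay below the highest vehicle mouse. Values with vehicle rest on few UMIs of Irf1, since the mouse at 1.54 CPM had 651017 UMIs of all genes in these cells. Gbp3 rose in 9 of 10 types (log2 0.62 to 1.39 over the 10). In CFU-E-like cells it went in WT from 5.38, 4.61, 4.41 and 3.18 CPM with vehicle to 11.2, 21.5, 8.87 and 23.4 CPM with IL1β, with no overlap and a log2 change of 1.51 (edgeR adjusted p = 0.00639).

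Gbp7 rose in 5 of 14 types, most in MPP-like cells with a log2 change of 1.04. There the Tet2-KO mice had 20.2 to 37.1 CPM with vehicle and 71.4 to 96.7 CPM with IL1β (n = 4 each, no overlap). Irgm1, an autophagy-linked GTPase, rose in 2 of 11 types, while its relative Igtp fell in 2 of 5, with -1.34 in MegP-like cells. Gbp2 was called in 0 of 3 types. Ifit2, Irf9, Stat2, Ifih1 and Parp9 also rose where called, in 2 of 5, 2 of 13, 1 of 9, 1 of 7 and 1 of 9 types. Stat2 rose in granulocyte progenitor-like cells by 0.58 on the log2 scale (edgeR adjusted p = 0.00131).

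In HSC-like cells members were called in both directions with IL1β, and the share raised was no higher than that of all genes. In WT, edgeR called 0 members higher and 2 lower of 25, beside 1.72% and 2.50% of all genes, and in Tet2-KO 1 higher and 3 lower, beside 4.79% and 6.51%. On average 2 were higher and 6 lower, beside 9.04% and 10.6%, and the median of the members was -0.16 beside 0.03 for all genes. This median was 0.05 over cells with at least 2000 UMIs, and also without replicate 3 of Tet2-KO with vehicle, so its direction is uncertain. Gbp3 rose from 24.6, 0, 26.2 and 20.0 CPM to 39.7, 51.1, 51.4 and 88.1 CPM in WT and from 17.1, 22.5, 13.1 and 18.3 CPM to 57.4, 36.2, 26.3 and 64.6 CPM in Tet2-KO. All mice with IL1β were above all with vehicle, by as little as 26.3 against 26.2 CPM, and the average log2 change was 1.20 ± 0.24 (SE, edgeR adjusted p = 6.79e-04). The 0 was in the mouse with 51306 UMIs, and in WT alone the change was not called (edgeR adjusted p = 0.0974). Irf1 rose by 0.57 on the log2 scale (edgeR adjusted p = 0.0335), with mice that overlapped in each genotype.

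Ifitm3 fell most firmly in HSC-like cells. It had 541, 370.3, 603 and 417 CPM in WT with vehicle and 321, 281, 249 and 315 CPM in WT with IL1β, and 556, 517, 532 and 592 against 217, 342, 378 and 445 CPM in Tet2-KO. The groups did not overlap in either genotype, and the average log2 change was -0.79 ± 0.12 (SE, edgeR adjusted p = 2.56e-05). Bst2 fell by 0.73 on the log2 scale (edgeR adjusted p = 2.84e-04), with 121 to 174 CPM in Tet2-KO with vehicle and 75.6 to 101 CPM in Tet2-KO with IL1β. Ifitm2 had 644, 507, 677 and 577 CPM in WT with vehicle and 431, 537, 393 and 352 CPM in WT with IL1β, where 1 mouse with IL1β lay above the lowest vehicle mouse. Ifitm1, Ifitm2, Ifi27l2a and Rtp4 fell on average by 0.54, 0.53, 1.17 and 0.83 on the log2 scale (edgeR adjusted p = 0.0106, 8.24e-04, 0.0254 and 0.0418). Basophil markers were higher with IL1β in HSC-like cells for 2 of 6 genes (83.6 to 253 CPM in WT with vehicle, 185 to 302 in WT with IL1β), and their part was not tested.

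The counts of higher and lower members in single types are given beside the shares of all genes, and were not compared between types. In MPP-like cells 3 of 14 members rose and 4 fell (all genes 7.46% and 10.5%), and in MegP-like cells 2 of 19 rose and 4 fell (9.70% and 13%). In CFU-E-like cells 5 of 30 rose and 7 fell (15.4% and 16.6%), and in erythroblast-like cells 5 of 29 rose and 5 fell (10.9% and 13.5%). In granulocyte progenitor-like cells 8 of 27 rose and 8 fell (25.2% and 24.5%). Both shares there were close to those of all genes. So were the shares that rose in CFU-E-, MegP- and monocyte-like cells. Monocyte progenitor-like cells had 4 rising and 4 falling of 18 (14.4% and 14.9%). In monocyte-like cells 4 of 31 rose and 11 fell (11.9% and 15.0%), and in NK/T-like cells 0 of 12 rose and 4 fell (2.21% and 5.62%), where DESeq2 called 0 higher and 3 lower. Bst2 in NK/T-like cells changed by -1.11 on the log2 scale (edgeR adjusted p = 0.00245). Of 8 dendritic cell markers, 3 were lower with IL1β in monocyte-like cells (summed 2199 to 3199 CPM in WT with vehicle and 1339 to 1675 CPM in WT with IL1β). The 6 pDC markers summed to 67.1 to 158 and 110.2 to 157 CPM in these groups. The part of these markers in the members that fell there was not tested.

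Ifitm1 moved in opposite directions with IL1β in different types. It rose in monocyte-like cells (average log2 change 1.31), granulocyte progenitor-like cells (0.91) and monocyte progenitor-like cells (0.77), and fell in HSC-like cells (-0.54) and basophil-like cells (-1.14, edgeR adjusted p = 1.40e-05). In granulocyte progenitor-like cells of WT mice it had 60.2, 36.8, 46.3 and 37.4 CPM with vehicle and 194, 147, 84.7 and 51.2 CPM with IL1β, where the lowest IL1β mouse lay below the highest vehicle mouse. Ly6e rose in 2 and fell in 2 of 15 types, with log2 changes of -0.46 to 0.44. In monocyte-like cells 3 of the 6 basophil markers were higher with IL1β (18.5 to 51.8 CPM in WT with vehicle and 65.5 to 97.0 CPM in WT with IL1β), in the same cells in which Ifitm1 rose, and their part was not tested.

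The difference in the IL1β effect between HSC-like cells and the other types was tested in the same way, a test chosen after the values had been seen. An unadjusted p under 0.05 by edgeR was found for 68 of 371 pairs, where the share of all genes is not given. After adjustment edgeR called 14 more positive and 3 more negative than in HSC-like cells, beside 0.950% of all genes in either direction. Ifitm1 accounted for 9 of the 14, from monocyte-like cells (higher by 1.95 on the log2 scale, edgeR adjusted p = 3.42e-18) and granulocyte progenitor-like cells (1.45) down to MPP-like cells (0.55). Irf1 was raised more in CFU-E-like cells (by 1.43). The value of Gbp2 in monocyte progenitor-like cells is no test, since Gbp2 was below the count filter in these cells and entered through HSC-like cells. The 3 more negative effects were those of Ly6e in plasma-like and granulocyte progenitor-like cells and of Samd9l in monocyte-like cells (-1.22).

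Samd9l in monocyte-like cells had 30.7, 37.1, 26.8 and 29.9 CPM in WT with vehicle and 17.6, 15.0, 8.94 and 6.67 CPM in WT with IL1β, and the average log2 change was -1.11 (edgeR adjusted p = 1.27e-04). In HSC-like cells it changed by 0.17 and did not pass. It also fell in CFU-E-like cells (-0.39, edgeR adjusted p = 0.0224) and rose in granulocyte progenitor-like cells (0.37, adjusted p = 0.0461).

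The genes that make, carry or restrain the interferon signal were read from lists of pathway genes outside the 39. Of 9 interferon ligands, 0 passed the filter on low counts in any type. Between the genotypes 1 pair of the interferon receptors, IRFs outside the 39, inhibitors and sensors was called, the interferon-γ receptor chain Ifngr1 in NK/T-like cells with IL1β (log2 0.95), and 0 were called for the averaged difference. With IL1β on average, where 11.0% of all gene pairs were higher and 13% lower, interferon receptors gave 16 higher (22.9%) and 1 lower (1.43%) of 70 pairs, with Ifngr1 higher in 10 of 15 types (log2 0.21 to 1.36) and Ifngr2 in 5 of 10. IRFs and their partners gave 13 higher (17.6%) and 5 lower (6.76%) of 74 pairs. All higher pairs were of the partners, Irf2bp2 in 12 of 15 types and Irf2bp1 in 1 of 11. All lower pairs were of IRFs, Irf8 in 4 of 14 types and Irf3 in 1 of 15. Inhibitors gave 4 and 7 of 55 (7.27% and 12.7%) and sensors 9 and 2 of 83 (10.8% and 2.41%), so that the lower share of inhibitors and the higher share of sensors were near those of all genes. Isg20, an exonuclease placed on the list of inhibitors, was lower in 6 of 7 types. Stress genes gave 25 higher (16.6%) and 0 lower of 151 pairs with IL1β, with the immediate early gene Junb higher in 10 of 15 types (log2 0.67 to 2.37), and their part in the members that rose was not tested.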

How the data were processed

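Per the file headers, the authors deposited whole-number UMI counts per gene and barcode from Cell Ranger 3.1.0, aligned to mm10 and not normalized, and the submitters' processing notes also name Seurat 3.2.3. Cells with at least 750 genes and at most 10% mitochondrial UMIs were kept. Hashtags were called with HTODemux (Seurat 5.3.0), and cells with both hashtags were left out. Doublets of 1 mouse were not removed. Cells were gated by marker genes into 18 types, with the number of markers per gate set after the data were seen. Gates were tried in stages, first committed types, then progenitors, then stem-like types, and a cell kept the first stage it met. Cells that met several gates within the committed or progenitor stage (4380), or no gate (8566), were left out. Cells in both the erythroblast and CFU-E gates counted as erythroblast-like, and the HSC gate came before the MPP and IMP gates. Clusters (30 components, 2000 genes, 20 neighbours, Leiden resolution 1, Python 3.11.15) served as an alternative and as a check of the names.

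UMI counts were summed per mouse and type for mice with at least 10 cells, where at least 3 mice per group remained. Genes kept by filterByExpr were scaled with TMM factors and tested with edgeR 4.0.16 (R 4.3.3), quasi-likelihood, all 4 groups in 1 fit, with Benjamini-Hochberg adjustment over all genes of a type and a threshold of 0.05. Replicates are separate mice. Differences between types were tested with mouse as a block. DESeq2 1.42.0 was an alternative. On data simulated for the averaged genotype difference in HSC-like cells, with 6992 genes, 84.0% of genes changed by a log2 of 1 and 99.0% of those changed by 2 were recovered, with 15 false calls among the other genes. The simulation changed 100 genes by each fold and held no effect of a shared library. In the real data 3 of 6992 genes were called, and with fewer changed genes the adjustment is stricter. These shares therefore do not show how often a member changed that much would be called. Deviations of mice with the same number correlated at 0.17 to 0.33 between genotypes with vehicle, at -0.01 to 0.28 with IL1β and at -0.56 to 0.06 across treatments, so the numbers were not taken to pair the mice. In Tet2-KO the numbers high in Xist differed between the treatments, and the part of sex in these correlations was not tested. Scores used log2(CPM + 1), with pseudocounts of 0.5 and 5 as alternatives.

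The members, gene lists and tests were chosen with earlier results of these data known. Named were members called in a type (at most 8 with the largest fold change) and the member with the highest mean in some types. Ifit1, Isg15, Irf7, Stat2, Ifitm3, Ly6e, Bst2, Irf1 and Gbp2 were named as examples. In HSC-like cells the 12 members with the largest averaged genotype difference were named, most with values or ranges of mice. Some of the other members tested there were given only as a range of differences. The list of kinases and the factors they activate is not reported here. Intervals of counting were not used, since mice are the unit.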

Additional observations from a re-analysis of the deposited data

Results flagged for a closer look

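Among groups of 4 mice, 51 sets of scores of the 39 genes were screened for a mouse that stands apart (a gap to the nearest mouse over the 95% critical value of Dixon's test), and 3 were found, where chance gives about 1 in 20. These were the Tet2-KO mouse 1 with IL1β in HSC-like cells (4.24, lowest of 4), the Tet2-KO mouse 1 with vehicle in basophil-like cells (4.21, highest of 4) and the Tet2-KO mouse 2 with vehicle in plasma-like cells (3.29, highest of 4).

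The effect in another cell type differed from that in HSC-like cells in 21 cases by edgeR's test of the difference over all genes. Ifitm1 gave most of them. Its IL1β effect (the log2 change there minus that in HSC-like cells) was higher by 1.95 in monocyte-like, 1.45 in granulocyte progenitor-like, 1.34 in monocyte progenitor-like, 1.24 in neutrophil-like, 1.22 in plasma-like, 0.90 in CFU-E-like, 0.88 in CLP-like, 0.72 in IMP-like and 0.55 in MPP-like cells. Its genotype difference was higher by 1.62 with vehicle and by 1.11 on average in monocyte-like cells, and differed by -1.17 with IL1β in erythroblast-like cells. Ifitm3 had a higher average genotype difference in monocyte progenitor-like cells (by 0.62), and its IL1β effect was less negative in CFU-E-like cells (by 0.56, with log2 changes of -0.26 there and -0.79 in HSC-like cells). The IL1β effect was also higher for Ifitm2 in plasma-like (0.94) and CLP-like cells (0.55), and for Irf1 in CFU-E-like cells (1.43). The value of Gbp2 in monocyte progenitor-like cells (2.26) is no test, since the gene was below the count filter there and entered through HSC-like cells. The IL1β effect was more negative for Ly6e in plasma-like (-0.57) and granulocyte progenitor-like cells (-0.28) and for Samd9l in monocyte-like cells (-1.22). All of these share the HSC-like cells as reference, so that the fall of Ifitm1 with IL1β in HSC-like cells enters each Ifitm1 value.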

How the results depend on the processing

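Calls are counted over pairs of a member and a cell type, and the cause of each move below was not tested. With RLE factors, the sex of the mouse as a covariate (chosen after seeing the data) and pseudocounts of 0.5 and 5, no count of calls moved by over 1.5 times and no median by more than the spread, though 6 of the 9 averaged genotype calls were among those made with sex as a covariate. Without a filter on low counts (578 pairs in place of 289), Tet2-KO was higher in 18 pairs with vehicle (2 with the filter), 16 with IL1β (1), where 1 was lower (0), and 32 on average (9), IL1β lowered 54 in Tet2-KO (33) and the interaction lowered 3 (0). With DESeq2, IL1β raised 13 in Tet2-KO (21 with edgeR). Tet2-KO with IL1β was higher in 3 pairs with Leiden clusters, 3 with 1 more marker per gate and 4 with a hashtag ratio rule (1), the last without neutrophil-like cells, which hold the call made with IL1β, and giving 25 lowered by IL1β in WT (40). With 1 more marker per gate the median of members in HSC-like cells was -0.12 for IL1β in WT (-0.36), -0.30 for IL1β in Tet2-KO (0.04) and -0.08 for the interaction (0.33). For IL1β on average it was 0.05 (-0.16) over cells with at least 2000 UMIs. With pools in place of mice, Tet2-KO was higher in 1 pair with vehicle and 4 on average, and IL1β raised 8 (15) and lowered 24 in WT. Without the 2 mice of mixed Xist and Y-linked UMIs, chosen after seeing the data, Tet2-KO was higher in 3 pairs on average and IL1β lowered 14 in WT. Without both pools of these mice, also chosen after seeing the data, where 2 WT mice per treatment were left, Tet2-KO was higher in 1 pair with vehicle and 4 on average, IL1β raised 4 and lowered 1 in WT and raised 19 (39) and lowered 39 (66) on average, and the median of the interaction was 0.56 (0.33).

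Replicate numbers were not taken as a pairing of the mice, although mice of the same number deviated together between genotypes with vehicle. With the pool number as a replicate block, Tet2-KO was higher in 2 pairs with IL1β and 15 on average, and the other counts stayed within 1.5 times.

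Leaving out 1 mouse, Tet2-KO was higher in 1 to 3 pairs with vehicle (1 without replicate 1 or 4 of WT with vehicle), in 1 to 4 with IL1β (2 without replicate 1 or 2 of Tet2-KO with IL1β, replicate 1 of WT with IL1β or replicate 1 of WT with vehicle, 4 without replicate 2 of WT with IL1β), with 0 to 1 lower (1 without that last mouse), and in 4 to 13 on average (4 without replicate 4 of Tet2-KO with IL1β, replicate 1 of Tet2-KO with vehicle or replicate 3 of WT with IL1β, 5 without replicate 4 of WT with vehicle). IL1β lowered 18 to 41 in WT (18 without replicate 1 of WT with vehicle, 22 without replicate 3 of WT with IL1β). In Tet2-KO it raised 10 to 27 and lowered 18 to 38 (10 and 18 without replicate 3 of Tet2-KO with vehicle, 11 raised without replicate 4). The median of IL1β on average in HSC-like cells ran from -0.21 to 0.05, the latter without replicate 3 of Tet2-KO with vehicle. HSC-like cells were few in some mice (15 at least), and recovery of changes under a log2 of 1, or with few changed genes, was not simulated.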

Other observations

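Eosinophil-, DC- and pDC-like cells fell short of the set 3 mice in at least 1 group, and their values are given without a test. In pDC-like cells, which are known for high Bst2, its CPM was 1639, 1249 and 1324 in 3 WT mice with vehicle, 967 and 746 in 2 WT mice with IL1β, 1255, 1491 and 1612 in 3 Tet2-KO mice with vehicle and 834 in 1 Tet2-KO mouse with IL1β. The score of the 39 genes in these cells was 3.43 to 3.64, 2.47 to 2.61, 3.49 to 4.30 and 2.98 in the same order. All mice with IL1β had lower Bst2 and a lower score than all mice with vehicle, and also fewer UMIs (44473 to 109137 against 124050 to 202266) and fewer members detected (16 to 22 against 25 to 32), with which the score moves. As a share of UMIs the 39 genes took 0.277 to 0.312% with IL1β and 0.402 to 0.492% with vehicle. Of pDC-like cells 39.8% lay in a cluster named monocyte.

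Ifi27l2a in the same pDC-like cells had 243 to 309.7 CPM in WT with vehicle, 45.0 and 159.9 in WT with IL1β, 252 to 520.1 in Tet2-KO with vehicle and 147 in Tet2-KO with IL1β. In DC-like cells Ifitm3 had 462 to 962 CPM in 3 WT mice with vehicle and 375 to 802 in 3 WT mice with IL1β, which overlapped, and Irf7 had 14.0 to 46.0 and 27.7 to 57.7 CPM in these groups. In eosinophil-like cells Ifitm1 had 491 and 526 CPM in 2 WT mice with vehicle, 511 and 337 in 2 WT mice with IL1β, 632 and 429 in 2 Tet2-KO mice with vehicle and 184, 659 and 544 in 3 Tet2-KO mice with IL1β.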
